A study of Rattus norvegicus with 2 samples.

Results

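Fibroblast growth factors (FGFs) and their receptors were described in fetal rat skin at a pair of stages. The genes were 6 ligands, Fgf1, Fgf2, Fgf7, Fgf9, Fgf10 and Fgf18, and the 4 receptors Fgfr1, Fgfr2, Fgfr3 and Fgfr4. They were found by their gene names among the non-control probes of the arrays, with a trailing "_predicted" or "_mapped" removed. These 10 genes, of 18363 named genes with a probe, had 15 of the 41012 probes on each array. The later pool, called E19, held RNA from 3 skin samples of Sprague Dawley fetuses at day 18.5. The E16 pool held RNA from 4 samples at day 16.5 of the same strain. The labels give no treatment for either stage. They name neither the body site of the skin nor the litters. Both pools were hybridised together to 2 Agilent 2-colour arrays, with E19 in Cy5 on one and in Cy3 on the other.

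FGFs are secreted proteins that bind heparan sulfate outside the cell and activate receptor tyrosine kinases, which signal through adaptors to the RAS and MAP kinase relay, phosphoinositide 3-kinase and phospholipase C gamma. In skin, ligands made by the dermal mesenchyme act on receptors of the overlying epithelium and ligands of epithelium act on mesenchyme. This exchange takes part in the growth of the epidermis, in hair follicle formation and in wound repair. Fgf9 and Fgf18 are also known from the skeleton, where Fgfr3 restrains the growth of cartilage.

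Each stage was 1 pool, so the arrays repeat the hybridisation and there was no replicate check and no test between stages. Values are the log2 ratio of E19 over E16 on each array, then the mean ± the SD over the 2 arrays. That SD is technical and does not measure how animals differ. The small number of arrays limits the precision. A gene was detected when 1 pool at least was well above background on both arrays. It was called higher in a pool when both arrays showed a difference of 2-fold or more in favour of that pool. Of 14801 detected genes, 4.15% were higher in E19 and 3.74% were higher in E16 by this rule, 7.89% in all. A further 3 genes followed the dye and not the pool, by 2-fold or more. Across genes, which do not count as independent replicates, the arrays correlated at r = 0.90. The median SD of the 2 arrays over all genes was 0.11.

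Of the FGF genes, 8 of 10 were detected, 4 of the 6 ligands and all 4 receptors. In E19, 0 of the 8 were called higher, against the 4.15% of all detected genes, and in E16, 2 of the 8 were called higher, against 3.74%. Those 2 were the ligands Fgf9 and Fgf18. Fgf7 was lower in E19 on both arrays by less than 2-fold, and the receptor Fgfr3 had a mean ratio above 2-fold towards E19 with 1 array just short of it. Fgf2, Fgfr1, Fgfr2 and Fgfr4 lay closer to 0. In whole skin, fewer cells of a type and less RNA per cell cannot be told apart, and this holds for every difference below.

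The promoters of the 3 genes with a mean ratio of at least 2-fold in either direction are shown so that the sequence around their start can be compared. They come from RefSeq on the GRCr8 assembly and run from 250 bases before to 50 after the start that the table uses, 5′ to 3′ along the gene. Capitals mark GC boxes, the letters GGGCGG on either strand. The Fgf9 promoter lies at chr15:36327108-36327407 on the plus strand, that of Fgf18 at chr10:18240833-18241132 on the minus strand and that of Fgfr3 at chr14:81227160-81227459 on the minus strand.
Fgf9: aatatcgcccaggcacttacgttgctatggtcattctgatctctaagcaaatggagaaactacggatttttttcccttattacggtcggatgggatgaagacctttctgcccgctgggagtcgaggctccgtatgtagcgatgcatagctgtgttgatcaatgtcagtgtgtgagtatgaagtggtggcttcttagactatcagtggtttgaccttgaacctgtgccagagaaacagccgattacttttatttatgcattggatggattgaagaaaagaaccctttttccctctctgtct
Fgf18: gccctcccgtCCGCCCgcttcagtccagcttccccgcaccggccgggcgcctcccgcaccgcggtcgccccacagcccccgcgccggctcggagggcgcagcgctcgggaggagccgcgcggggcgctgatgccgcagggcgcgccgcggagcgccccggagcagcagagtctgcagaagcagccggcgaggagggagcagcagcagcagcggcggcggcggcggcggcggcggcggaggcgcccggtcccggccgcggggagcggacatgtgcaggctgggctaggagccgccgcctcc
Fgfr3: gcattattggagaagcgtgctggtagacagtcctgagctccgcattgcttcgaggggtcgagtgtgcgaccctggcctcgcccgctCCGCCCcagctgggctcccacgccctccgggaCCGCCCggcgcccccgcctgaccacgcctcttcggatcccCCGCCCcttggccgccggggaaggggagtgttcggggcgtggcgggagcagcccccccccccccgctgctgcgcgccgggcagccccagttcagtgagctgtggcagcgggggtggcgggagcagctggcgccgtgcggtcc

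The ligands called higher in E16 differed in their promoter sequence. The Fgf9 promoter was 44.7% G and C with 10 CpG dinucleotides, whereas that of Fgf18 was 81.3% G and C with 48 CpG dinucleotides. The Fgfr3 promoter was 74.7% G and C with 31 CpG dinucleotides, against a median of 51.7% and 7 over all 33469 promoters of the table. The GC box occurred 3 times in Fgfr3, 1 time in Fgf18 and 0 times in Fgf9, and was present in 33.1% of all promoters. Promoters were given for 9 of the 10 genes, and 5 of these 9 held a GC box. Of the other motifs, each searched on both strands, TATAAA was in 1 of the 9 promoters, that of Fgf7, against 14.2% of all promoters. CCAAT was in 4 of 9 against 37.5%, and CTTTG, the core of the TCF/LEF motif, in 4 of 9 against 53.8%. The E-box CANNTG was in 8 of 9 against 72.1%, and the STAT motif TTCNNNGAA, in Fgf1 and Fgf2, was in 2 of 9 against 8.87%. In the window shown, Fgf9 had 1 CCAAT match on the minus strand, whose first base lay 8 bases after the start, and 1 E-box. A match is a description of letters and not a bound site.

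**Figure D1:**
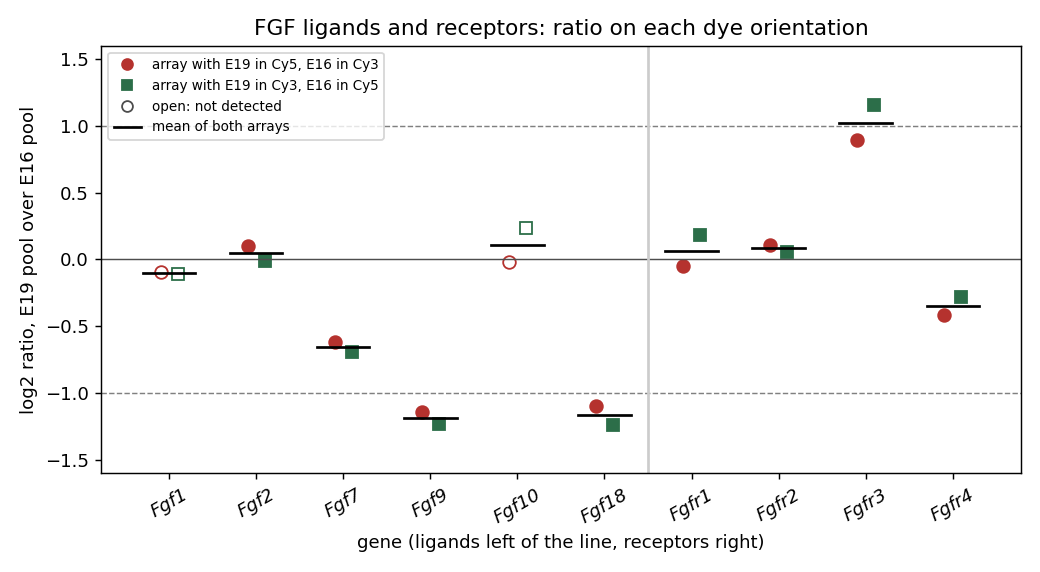
The log2 ratio of E19 over E16 is plotted for each gene on the array with E19 in Cy5 (circles) and the array with E19 in Cy3 (squares), with the mean as a line, open symbols for genes not detected and dashed lines at 2-fold. Fgf9 and Fgf18 lie beyond 2-fold towards E16 on both arrays, and Fgfr3 lies at 0.90 and 1.15.

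Fgf9, a ligand known in mice from hair follicle regrowth in wounds and from limb cartilage, had normalised log2 intensities of 7.88 and 7.72 in E19, against 9.03 and 8.96 in E16 (array with E19 in Cy5, then array with E19 in Cy3). The E19 value was below the E16 value on each array. These are repeat readings of 1 pool per stage, and the share of all genes that differ this way was not counted. Its ratio was -1.15 and -1.23, a mean of -1.19 ± 0.06, so that Fgf9 was 2.28-fold higher in E16. Of all detected genes, 3.29% had a lower ratio than Fgf9. The scanner program's own processed intensity was 160.4 and 105 for Fgf9 in E19, against 413 and 369 in E16. The dimmer E19 spots of Fgf9 were still well above background on both arrays. The gene is on chromosome 15 and has 1 probe, of 1 spot per array.

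Fgf18, a ligand known from bone and cartilage growth and from the resting phase of the mouse hair cycle, had log2 intensities of 9.09 and 8.96 in E19, against 10.19 and 10.20 in E16. As for Fgf9, the E19 value lay below the E16 value on each array. The ratio of Fgf18 was -1.10 and -1.24, a mean of -1.17 ± 0.10, which is 2.25-fold higher in E16. A lower ratio was found for 3.38% of detected genes. The difference between Fgf9 and Fgf18 in mean ratio was smaller than the SD of the 2 arrays for either gene. Fgf18 has 1 probe, with no design coordinates, and its promoter is on chromosome 10.

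Fgf7, keratinocyte growth factor, which mesenchymal cells make and epithelial cells receive through a splice form of Fgfr2, had log2 intensities of 9.80 and 9.70 in E19, against 10.42 and 10.39 in E16. Its ratio was -0.62 and -0.69, a mean of -0.66 ± 0.05, or 1.58-fold higher in E16. The 2 arrays lay on the same side of 0 and short of 2-fold, and 8.02% of detected genes had a lower ratio than Fgf7. The design coordinates of the Fgf7 probe, on chromosome 3, span 1049 bases for a probe of 60 bases.

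Fgf2, basic FGF, a ligand without a signal peptide that acts on fibroblasts and blood vessels, had log2 intensities of 8.90 and 8.85 in E19, against 8.80 and 8.86 in E16. The pools were close together for Fgf2, and its ratio of 0.10 and -0.01 changed sign between arrays. The mean ratio was 0.05 ± 0.08. The Fgf2 probe was printed as 10 spots on each array, which gives the spread within an array. Over its 10 spots the ratio lay between 0.01 and 0.25, with a median of 0.09 and an SD of 0.08, on the array with E19 in Cy5. On the array with E19 in Cy3, the ratio lay between -0.14 and 0.07, with a median of 0.00 and an SD of 0.07. A second Fgf2 probe, 655 bases away on chromosome 2, gave a ratio of -0.03 and -0.05. It was dim, with log2 intensities of 6.86 and 6.80 in E19, against 6.89 and 6.85 in E16.

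Fgf10 and Fgf1 were not detected by the rule. Fgf10, which mesenchyme makes and which is needed for the budding of limbs and lungs, had log2 intensities of 6.68 and 6.85 in E19, against 6.70 and 6.61 in E16. The E19 pool was well above background on 1 of the 2 arrays for Fgf10, and the E16 pool on 0 of the 2. No fold is given for Fgf10. Fgf1, acidic FGF, which binds all 4 receptors, had log2 intensities of 6.45 and 6.53 in E19, against 6.54 and 6.64 in E16. It was not well above background in either pool on either array, so no fold is given for Fgf1.

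**Figure D2:**
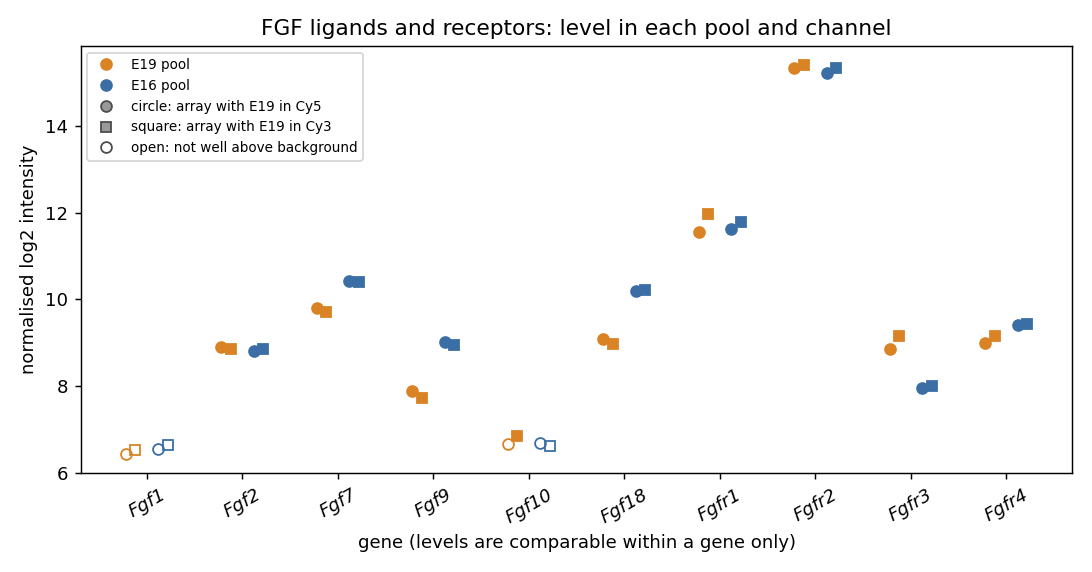
Normalised log2 intensity is plotted for each gene in the E19 pool (orange, left) and the E16 pool (blue, right), with circles for the array with E19 in Cy5, squares for the array with E19 in Cy3 and open symbols where a spot was not well above background. Levels can be set against each other within a gene only. Among detected genes, E19 lies below E16 on both arrays for Fgf7, Fgf9, Fgf18 and Fgfr4, and above it for Fgfr3 and, narrowly, Fgfr2.

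Among the receptors, Fgfr3, which epidermal cells and growth plate cartilage carry, had log2 intensities of 8.86 and 9.16 in E19, against 7.96 and 8.01 in E16. The E19 value of Fgfr3 was above its E16 value on each array. The ratio was 0.90 and 1.15, a mean of 1.03 ± 0.18, or 2.04-fold higher in E19, and the array with E19 in Cy5 was short of 2-fold. Of all detected genes, 95.2% had a lower ratio than Fgfr3. The processed intensity of Fgfr3 was 314 and 432 in E19, against 132 and 146 in E16. Its design coordinates on chromosome 14 span 235 bases, more than the probe. A probe without a gene name, described in the files as Fgfr3, was not detected and gave a ratio of 0.28 and 0.24. The files describe a further pair of detected probes without a gene name as partly similar to a mutant FGF receptor 3, and these gave -0.06 ± 0.51 and -0.23 ± 0.10, below 0 in their means.

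Fgfr4, a receptor best known in liver and in muscle progenitors, had log2 intensities of 8.99 and 9.15 in E19, against 9.40 and 9.43 in E16. The ratio of Fgfr4 was -0.41 and -0.28, a mean of -0.35 ± 0.09, with both arrays on the E16 side and both short of 2-fold. Of detected genes, 17.1% had a lower ratio. The probe lies on chromosome 17.

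Fgfr2, the receptor of Fgf7 and Fgf10 in epithelia, has 4 probes on chromosome 1. The brightest, A_43_P10225, had log2 intensities of 15.32 and 15.39 in E19, against 15.21 and 15.33 in E16, and 0 of its spots were marked as saturated. Its ratio was 0.11 and 0.06, a mean of 0.09 ± 0.04. The probe A_44_P139894, whose coordinates lie 18551 bases away and span 1986 bases, gave a ratio of 0.27 and 0.67, a mean of 0.47 ± 0.28, or 1.39-fold higher in E19. This was the highest of the 4 Fgfr2 probes and the one with the widest gap between arrays. A_44_P454429, 905 bases from the brightest, gave 0.16 ± 0.12, and A_43_P16199, 37159 bases away, gave 0.13 ± 0.05. A_43_P16199 was dim, with log2 intensities of 6.92 and 6.85 in E19, against 6.83 and 6.69 in E16. It was not well above background in E16 on the array with E19 in Cy5. All 4 Fgfr2 probes were above 0 on both arrays and 0 of them reached 2-fold, but centring on the spike-in RNAs lowers each by 0.22 and leaves only A_44_P139894 above 0 in its mean. With median centring in place of loess, the arrays differed in sign for the brightest Fgfr2 probe, at 0.89 where E19 carried Cy5 but -0.74 where it carried Cy3. Which splice form of Fgfr2 each probe reads was not tested, and probe sequences were not used here.

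Fgfr1, a receptor of fibroblasts and other mesenchymal cells, had log2 intensities of 11.56 and 11.97 in E19, against 11.61 and 11.79 in E16 at its brighter probe, A_44_P475197. The ratio of -0.05 and 0.18 changed sign between arrays, with a mean of 0.06 ± 0.16. The accessions listed for this probe include that of LOC500109, described in the files as similar to Fgfr1, so its signal is uncertain as a measure of Fgfr1 alone. The probe named LOC500109 gave 0.19 ± 0.35. A detected probe without a gene name, described as Fgfr1, gave 0.03 and 0.05, a mean of 0.04 ± 0.01. It was dim, with log2 intensities of 6.85 and 6.91 in E19, against 6.82 and 6.86 in E16. The second Fgfr1 probe, A_44_P264628, lies 10014 bases away on chromosome 16 and gave -0.17 and -0.29, a mean of -0.23 ± 0.08. The 2 Fgfr1 probes therefore differed in sign of the mean ratio, and both were short of 2-fold.

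**Figure D3:**
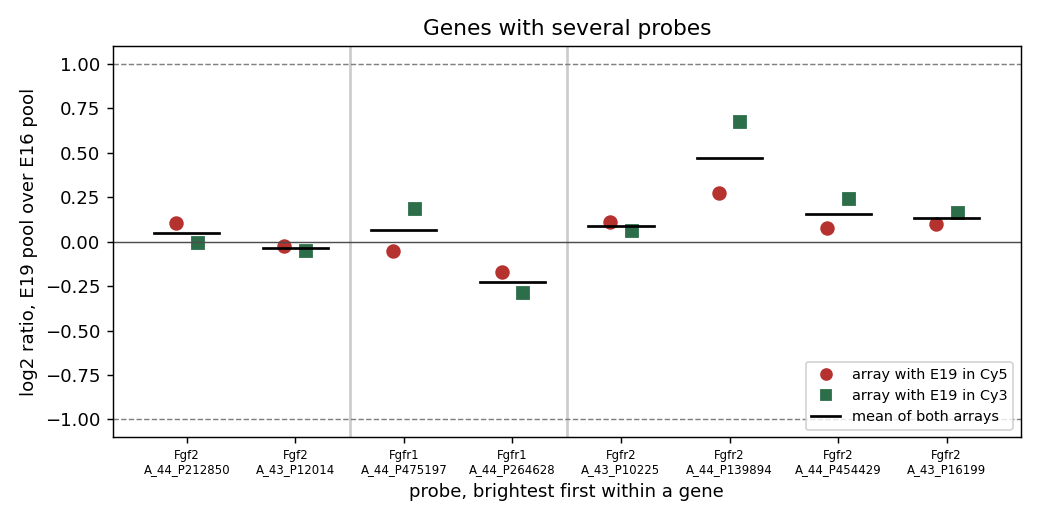
The log2 ratio of E19 over E16 is plotted for each probe of Fgf2, Fgfr1 and Fgfr2, with circles for the array with E19 in Cy5, squares for the array with E19 in Cy3 and a line at the mean. All 8 probes lie within 2-fold, and the means of Fgfr2 range from 0.09 to 0.47.

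Over the 8 detected genes the median ratio was -0.15, against 0.02 over all detected genes. The 4 detected ligands had a median of -0.91 and the 4 receptors a median of 0.07. Among ligands, Fgf7, Fgf9 and Fgf18 were below 0 on both arrays and Fgf2 changed sign. The share of all detected genes on the same side of 0 on both arrays was not counted, and ligands were not tested against receptors. Among receptors, Fgfr2 (not with the spike-in RNAs at 0 or with median centring) and Fgfr3 were above 0 on both arrays, Fgfr4 was below 0 on both and Fgfr1 changed sign. The authors' deposited table, which combines both arrays, gave an E19 over E16 ratio of 0.337 for Fgf9, 0.413 for Fgf18, 0.623 for Fgf7 and 2.64 for Fgfr3. Those 4 ratios lie on the same side of 1 as the values above, but they come from the same arrays and are not separate evidence. The ratio of Fgfr4 in the authors' deposited table was 0.794, and that of Fgf2 was 1.07. Its entries for Fgfr1 were 1.02 and 0.734, and those for Fgfr2 were 1.05, 1.29 and 1.51.

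Marker genes of tissues beside skin were detected, and several of their lists differed between the pools. Of 12 detected cartilage markers, 0 were higher in E19 and 10 were higher in E16, with a median ratio of -1.76. Their summed linear intensity was 14957.6 and 13526.6 in E19, against 50488.3 and 48943.3 in E16. Such a sum, here and below, adds probes that are not on a common scale, so the brightest genes lead it. Col2a1, the main collagen of cartilage, had a ratio of -2.69 ± 0.24, and Sox9, the regulator of cartilage cells, -0.32 ± 0.15. In E19, 10 of the 12 cartilage markers were well above background on both arrays, against 12 of 12 in E16. Fgf9 and Fgf18 are known from cartilage and the tissue around it, and the part of cartilage in their ratios was not tested. Col9a1, a minor collagen of cartilage, was the 1 marker of the 12 above 0, at 0.43 ± 0.02. Fgfr3 is also known in cartilage, and the part of cartilage in its ratio of 1.03 ± 0.18 was not tested.

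Bone and muscle markers were mixed. Of 6 detected bone markers, 0 were higher in E19 and 2 in E16, with a median of -0.64. Their summed intensity was 74468.2 and 74888.0 in E19, against 52629.1 and 62509.0 in E16. That sum was mostly Spp1, at log2 intensities of 16.14 and 16.15 in E19, against 15.24 and 15.55 in E16. The 2 called bone markers, Ibsp and Alpl, had ratios of -3.42 ± 0.37 and -1.95 ± 0.10. Of 13 skeletal muscle markers, 2 were higher in E19 and 5 in E16, with a median of -1.09. Their summed intensity was 248630.5 and 159327.9 in E19, against 405336.6 and 391674.4 in E16. Its brightest gene was Myh3, whose E19 log2 intensities differed between arrays, at 17.17 and 15.78, against 17.87 and 17.86 in E16. Myod1, the regulator of the muscle lineage, had the lowest ratio of the list, -2.48 ± 0.02. The 2 muscle markers higher in E19, Myh8 and Ckm, had ratios of 1.80 ± 0.14 and 1.17 ± 0.06. Of 12 neuron markers, 0 were higher in E19 and 10 in E16, with a median of -3.13, and their summed intensity was 12273.6 and 12556.7 in E19, against 72084.1 and 72097.6 in E16. Fgfr4 is known in muscle progenitors and Fgf9 in neurons, and the part of those tissues in their ratios was not tested.

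Markers of the skin layers had list medians above 0. Of 7 basal epidermis markers, 3 were higher in E19 and 0 in E16, with a median of 1.13, and of 8 suprabasal markers, 7 were higher in E19 and 0 in E16, with a median of 1.83. The basal list had a summed intensity of 330678.1 and 355728.8 in E19, against 160088.2 and 195599.4 in E16. The suprabasal list summed to 877006.2 and 1041643.0 in E19, against 165080.2 and 481629.3 in E16. Its brightest genes were Krt1 and Krt10, whose E16 log2 intensities differed between arrays. They were 15.17 and 17.59 for Krt1, and 15.68 and 17.42 for Krt10. Of 9 dermal fibroblast markers, 1 was higher in E19 and 0 in E16. Their median was 0.53, with 2 of the 9 below 0. The dermal list summed to 767366.2 and 658330.4 in E19, against 370012.5 and 553002.1 in E16. Col3a1, a bright gene of that list, had E16 log2 intensities that differed between arrays, at 16.26 and 17.47. Every detected marker of these 3 skin lists was well above background in both pools on both arrays. Fgfr3 had the same sign as the epidermal markers, and the part of epidermis in its ratio was not tested. Fgfr2, an epithelial receptor, had a ratio of 0.09 ± 0.04 at its brightest probe. Fgf7, made by dermal fibroblasts, had a ratio of -0.66 ± 0.05, and the part of dermal fibroblasts in it was not tested.

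Beyond these 10 genes, 104 genes of FGF signalling were listed in 7 groups by role. Of the 84 detected, 2 were higher in E19 and 3 were higher in E16, against 4.15% and 3.74% of all detected genes, and their median ratio was 0.01.

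The other secreted FGFs gave 8 detected genes of 12, of which 0 were called in either direction, with a median of 0.21. The largest ratios in each direction were those of Fgf22, a ligand known from hair follicles and synapses, at 0.86 ± 0.06, and Fgf21, an endocrine ligand known from liver, at -0.37 ± 0.02. The intracellular FGF homologous factors do not act on the receptors and are known to bind sodium channels in neurons and heart. Of 4 such genes, 2 were detected and 1 was called. Fgf13 had log2 intensities of 11.44 and 11.66 in E19, against 13.53 and 13.41 in E16. Its ratio of -1.92 ± 0.24 made Fgf13 3.79-fold higher in E16, in the same direction as the neuron markers. The part of nerve tissue in the Fgf13 ratio was not tested. Fgf12, named after its value was seen, had a ratio of -0.92 ± 0.03.

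Of 20 co-receptors, decoy receptors and carriers, 15 were detected, with 2 higher in E19, 1 higher in E16 and a median of -0.12. Klb, the co-receptor of endocrine FGFs that is known from fat and liver, had log2 intensities of 7.90 and 7.39 in E19, against 6.43 and 6.26 in E16. Klb was not well above background in E16 on either array. With a lower E16 level raised to the lowest level well above background in its channel, Klb was 2.36-fold higher in E19. This raised the E16 level on the array with E19 in Cy5 only. With the spike-in RNAs at 0 the mean ratio of Klb was 1.08, so 2.36-fold was not a lower limit over all processing. Its mean ratio ranged between 1.08 and 4.21 over the other ways of processing that gave a value for both pools. All 8 detected adipocyte markers were higher in E19, with a median of 3.55 and a summed intensity of 103368.1 and 105671.8 in E19, against 6016.4 and 8085.9 in E16. The part of fat cells in the Klb ratio was not tested. Fgfbp1, a secreted carrier that releases FGFs from the matrix and is known from epidermis, had log2 intensities of 13.39 and 13.54 in E19, against 12.30 and 12.51 in E16. Its ratio of 1.06 ± 0.04 made it 2.09-fold higher in E19. L1cam, a neural adhesion molecule that can bind FGF receptors, had log2 intensities of 9.43 and 9.30 in E19, against 11.01 and 11.21 in E16, and was 3.34-fold higher in E16 with a ratio of -1.74 ± 0.23. Fgfrl1, the decoy receptor without a kinase domain, named after its value was seen, had a ratio of -0.83 ± 0.17.

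Of 19 genes for the synthesis and editing of heparan sulfate, the sugar chain that FGFs need to engage their receptors, 15 were detected and 0 were called in either direction. Their median was -0.06. The ratios reached 0.80 ± 0.13 for Extl1 and -0.62 ± 0.05 for Extl2, both glycosyltransferases. All 27 adaptors and signal relay genes were detected and 0 were called, with a median of 0.15. The lowest ratio of this list was that of Sos2, an exchange factor for RAS, at -0.45 ± 0.35.

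Of 18 feedback inhibitors and ETS targets, genes that respond to FGF signalling in many tissues, 14 were detected, with 0 higher in E19, 1 higher in E16 and a median of -0.10. Etv1, an ETS transcription factor, had log2 intensities of 10.15 and 10.10 in E19, against 11.38 and 11.35 in E16. The ratio of Etv1 at its brightest probe was -1.24 ± 0.01, or 2.36-fold higher in E16. Averaged over the detected probes of Etv1, the mean ratio was smaller, at -1.02. Named after their values were seen, its relatives Etv5 and Etv4 had ratios of -0.70 ± 0.02 and -0.52 ± 0.06, on the E16 side and short of 2-fold. Of the phosphatases of the MAP kinase relay, Dusp5 had a ratio of 0.83 ± 0.14, Dusp7 of 0.35 ± 0.02 and Dusp4 of 0.09 ± 0.05, each above 0 on both arrays. Dusp6 changed sign between arrays, with -0.54 and 0.19. The feedback inhibitor Spry2 had a ratio of -0.42 ± 0.13, and these 5 genes were also named after their values were seen. Of 4 splicing factors that act on receptor transcripts, 3 were detected and 0 were called. Esrp2, which favours epithelial splice forms, had a ratio of 0.54 ± 0.02, and Rbfox2 had -0.31 ± 0.40.

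**Figure D4:**
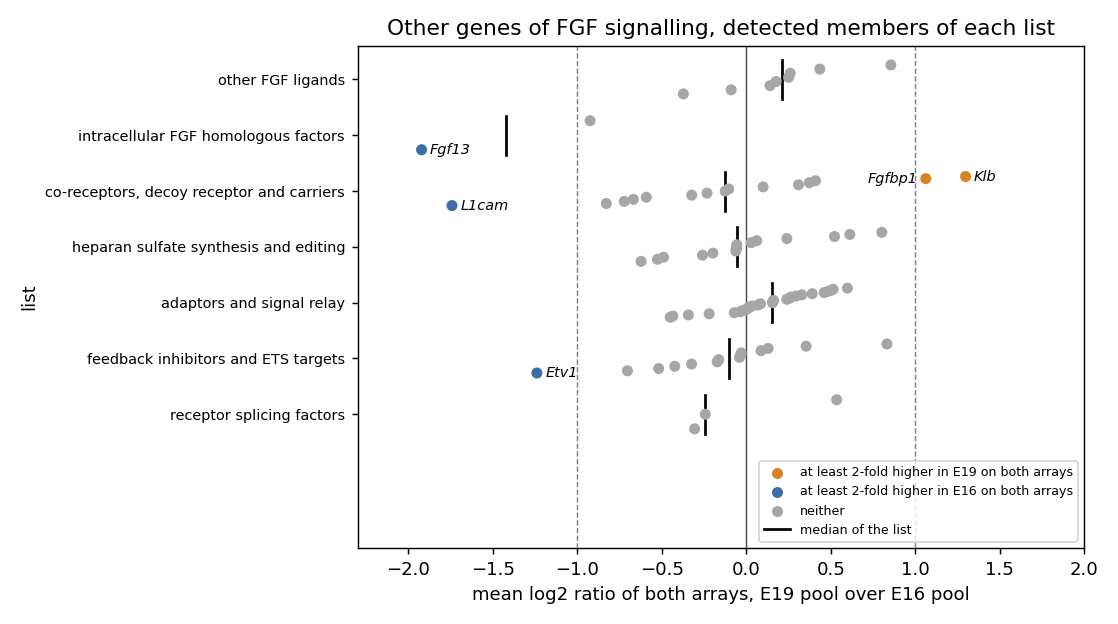
The mean log2 ratio of E19 over E16 is plotted for the detected genes of each list, coloured orange where called higher in E19, blue where called higher in E16 and grey otherwise, with the list median as a line. The 5 called genes are Klb and Fgfbp1 towards E19, and Fgf13, L1cam and Etv1 towards E16.

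The direction of Fgf9, Fgf18, Fgf7, Fgfr3 and Fgfr4 was kept under the 13 other ways of processing that use both arrays. Fgf9 ranged between -1.59 and -1.17, Fgf18 between -1.39 and -1.17, and Fgfr3 between 0.81 and 1.41. Of these, 12 give a value on each array, and Fgf9 and Fgf18 were past 2-fold on both arrays in 11 of the 12. With median centring in place of loess they were not, since the array with E19 in Cy5 gave -0.95 for Fgf9 and -0.80 for Fgf18. Fgfr3 was past 2-fold on both arrays in 3 of the 12. Several of the 12 left Fgf9, Fgf18 and Fgfr3 exactly as reported and add no separate support. They were the changes to filters, gene names, outlier spots and saturated spots, and the averaging over probes. The Feature Extraction processed signals and log ratio also gave the same values as each other to rounding. The single combined value in the authors' deposited table was past 2-fold for all 3 genes. With the 10 spike-in RNAs centred at 0, the mean ratios of Fgf2, Fgfr1 and Fgfr2 turned to -0.17, -0.15 and -0.13, while the median of all genes moved to -0.20. The mean of Fgfr1 also turned to -0.08 when averaged over its probes and to -0.0012 with median centring.

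**Figure D5:**
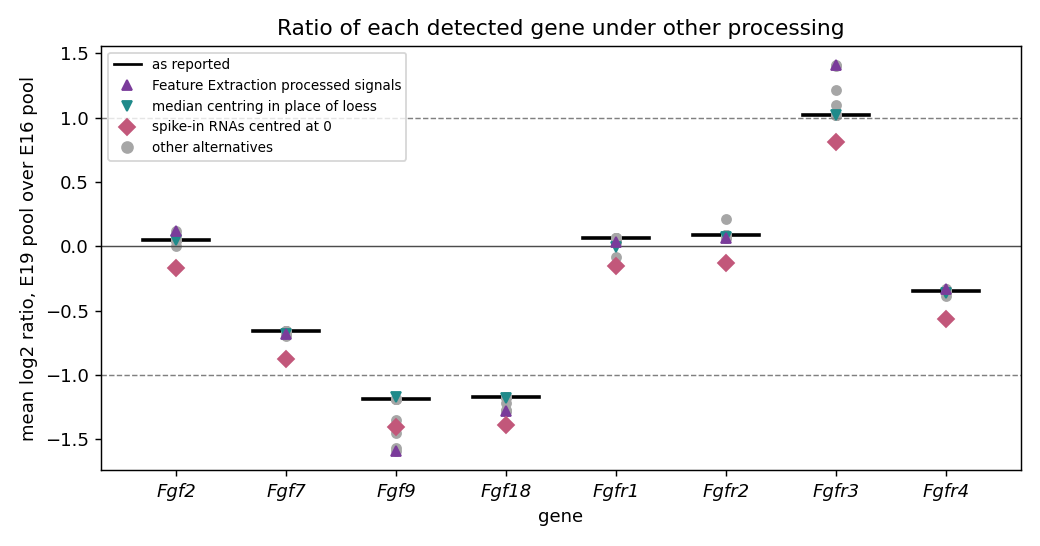
The mean log2 ratio of E19 over E16 of each detected gene is plotted as reported (line) and under each other way of processing (symbols), with dashed lines at 2-fold. Fgf9 and Fgf18 stay below -1 in their mean, and Fgfr3 spans 0.81 to 1.41.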

How the data were processed

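RNA of a pool of 3 E19 and a pool of 4 E16 fetal rat skin samples was hybridised to 2 dye-swapped arrays on the same slide, which left no batch to test. Per the file headers, Agilent Feature Extraction 9.5.1.1 measured spot intensity and local background, and wrote background-subtracted, dye-normalised intensity, its log10 ratio of Cy5 over Cy3, and flags for background, saturation and outliers. The authors' deposited table holds a log10 ratio, a linear ratio and a p-value per sequence, for both arrays together, and the p-value was not used. The sources used here do not state how the arrays were combined. That ratio was taken to run as E19 over E16, since it correlated at 0.90 and 0.89 with the ratios of both arrays turned that way, over 29365 probes.

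The mean intensity was corrected for background in limma 3.58.1 (R 4.3.3), with the normexp method and an offset of 50. Loess normalisation of the log2 ratios followed on each array separately, and control spots had a weight of 0. Levels were set per channel with Aquantile normalisation. Outlier spots were left out, spots of a probe were averaged, and the brightest detected probe stood for a gene. Spots well above background made up 71.5% to 74.3% of each channel, and 0 to 15 spots of a channel were saturated. Tables and plots used Python 3.11.15, pandas 2.3.3 and matplotlib 3.10.9. The steps were tested on simulated data.

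Named genes were all 10 FGF genes, every listed pathway gene past the size rule and, in a list with none, the largest ratio in each direction. One gene that this rule selects is not reported here. The genes and lists were chosen with earlier results of these data known. Of 104 pathway genes, 5 were matched through an updated name and 9 had no probe found by name. The files name no genome build, so probe coordinates served for distances only. The alternatives changed the background correction, centring, choice of probe, filters, fold limit, gene names and source of the ratio, or left out an array. The pathway and marker lists were recomputed under them as an addition chosen after seeing the data.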

Additional observations from a re-analysis of the deposited data

How the results depend on the processing

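With 1 pool per stage, no alternative can measure the variation between animals. Each ratio pairs E19 and E16 on the same array. Each dye orientation has 1 array and both hold the same pools, so no pairing over animals was possible.

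The alternatives that use both arrays gave 104 values for the 8 detected FGF genes, of which 82 moved by less than the SD of the 2 arrays and 22 by more. Many of the 82 did not move at all, because the alternative did not alter the probe of that gene. The cause of the changes below was not tested. All genes higher in E19, 614 as reported, numbered 368 with median centring, 390 with the spike-ins at 0, 1012 with either the processed signals or the log ratio of Feature Extraction, 1412 at 1.5-fold, 179 at 3-fold and 1201 in the authors' deposited table. Genes higher in E16, 554 as reported, numbered 439 with median centring, 811 with the spike-ins at 0, 888 with either Feature Extraction column, 1141 at 1.5-fold, 230 at 3-fold and 999 in the authors' deposited table. The authors' deposited table holds a single combined ratio per sequence, so its counts need 2-fold on that value and not on each array. With the spike-ins at 0, 32.5% of called genes were higher in E19, against 52.6% as reported. From a single array, 742 to 776 genes were higher in E19 and 679 to 687 in E16.

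FGF genes higher in E16 numbered 0 with median centring and 0 at 3-fold. FGF genes higher in E19 numbered 1, Fgfr3, with normexp at offset 0, with either Feature Extraction column, at 1.5-fold and in the authors' deposited table. From a single array, 0 to 1 FGF genes were higher in E19, Fgfr3 being past 2-fold on the array with E19 in Cy3, and 2 in E16. At 1.5-fold, Fgf7 joined Fgf9 and Fgf18.

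Of the pathway genes, Fgf13 and L1cam were past 2-fold in 13 of 13 alternatives, Etv1 in 11 and Fgfbp1 in 9. Klb, dim in E16, ranged between 1.08 and 4.21. Fgf22 reached 1.42 with the processed signals and was past 2-fold in 4 alternatives. With the spike-ins at 0, the median of the adaptors and signal relay list turned to -0.06 and that of the other FGF ligands to -0.0029.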
